A study of Mus musculus with 12 samples.

Results

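The interferon-induced and antiviral genes described here are 39 genes of the mouse type I interferon response, chosen by symbol as known members of that response. They were chosen with earlier results of these data known, which limits each share of members set against all entries. They comprise 4 transcription factors, 10 sensors of foreign nucleic acid and enzymes that such sensing switches on, 8 genes of ISG15 conjugation, ubiquitin ligation and ADP-ribosylation, 15 genes listed as effectors and 2 genes of antigen presentation. Each of the 39 symbols stood on 1 entry of the deposited tables, which hold 30032 gene symbols in all, and each was tested by the authors in all 4 of their comparisons.

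RNA was measured in kidney epithelial cells of C57BL/6 mice in a study of JNK, a stress-activated protein kinase, in cells that lose their attachment. The 4 groups were JNK-deficient cells held in suspension for 4 h, JNK-deficient cells in attached monolayers, control cells held in suspension for 4 h and control cells in attached monolayers, with 3 samples in each and 12 in all. JNK-deficient cells are labelled Jnk1-/- Jnk2-/- and were made from Jnk1 flox/flox Jnk2-/- cells with Rosa-CreER, a Cre recombinase switched on by tamoxifen, so that Jnk1 was floxed while Jnk2 was already lost. Control cells carried Rosa-CreER as well, which leaves the Cre transgene common to all groups. The labels do not say from how many animals or isolations the cells of either genotype came, nor whether the samples of a group were separate cultures, so the authors' p-values may measure technical spread only.

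Type I interferons bind a receptor on the cell surface whose kinases, JAK1 and TYK2, phosphorylate STAT2. STAT2 and IRF9 are part of a complex that binds the interferon-stimulated response element (ISRE) in the promoters of target genes, many of which block steps of viral replication. Epithelial cells keep a low level of such transcripts without infection, and sensors of viral RNA, which are themselves induced by interferon, can start a new round of interferon production.

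Levels are FPKM, fragment counts scaled by transcript length and by the fragments mapped in the library, given by the authors as 1 value per group without a value for each sample, so no SD can be shown. Values of JNK-deficient and control cells on suspension come from separate tables, whose scale for the same group differed by at most 0.0895 on the log2 scale. All FPKM, p- and q-values below stand in the authors' deposited tables, and a change is called where the authors' q-value is below 0.05. Each log2 fold change was computed from those FPKM, as suspended over attached or as JNK-deficient over control cells. A further z-test, with standard errors (SE) derived from the authors' p-values, compared the change on suspension in JNK-deficient cells with that in control cells.

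The targeted gene was checked first. Mapk8, which encodes JNK1, had 2.52 FPKM in suspended JNK-deficient cells, against 10.9 FPKM in suspended control cells, -2.11 on the log2 scale (the authors' deposited table has q = 0.00099). In attached cells it had 2.26 FPKM in JNK-deficient cells, against 8.76 FPKM in control cells. It was thus lower in JNK-deficient cells in both cultures. Mapk9, which encodes JNK2, was still read at 17.4 FPKM in suspended JNK-deficient cells, against 29.2 FPKM in suspended control cells. Gene values do not show which exons the reads covered. Summed over 9 epithelial markers, including Epcam, Cdh1, Pax2 and keratin genes, levels were 2498 FPKM in suspended and 4918 FPKM in attached JNK-deficient cells, and 2644 FPKM in suspended and 5556 FPKM in attached control cells, with none of the 9 near 0. On suspension 7 of the 9 fell in JNK-deficient cells (background 29.0%) and 8 in control cells (32.1%). Pax2 fell most steeply, with log2 changes of -3.34 and -3.20. Cdh1 alone rose in each genotype, by 0.95 and 0.99. By the authors' test Cdh1 was lower in JNK-deficient than in control cells, in suspended (-0.51) and attached cells (-0.44). Of other cell types the cultures could hold, 7 leukocyte markers summed to 81.7 FPKM in suspended and 78.9 FPKM in attached JNK-deficient cells, and to 77.5 FPKM in suspended and 56.5 FPKM in attached control cells. Most of each sum was Cd14 and Cd68, and single leukocyte markers moved, as given with the last results below. Summed levels of 4 endothelial, 5 fibroblast and 3 lymphoid or plasmacytoid markers were at most 3.25 FPKM in any group. The fibroblast sum was 1.52 FPKM in suspended and 0.459 FPKM in attached JNK-deficient cells, and 3.25 and 0.311 FPKM in control cells. Most of the suspended sums was Pdgfra, which was lower in suspended JNK-deficient than control cells (-1.02, q = 0.0436 in the authors' deposited table). The endothelial sum was 0.867 and 0.137 FPKM in JNK-deficient cells, and 1.37 and 0.206 FPKM in control cells.

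Of 7 members that bear on the pattern described below, Rsad2, Oas1a, Gbp3, B2m and Ifit3 differed between the genotypes in their change on suspension. Among these Ifit3 fell in both genotypes. Isg15 is the ubiquitin-like product that names the ISG15 system, and Irf1 rose in both genotypes. Promoter sequences are shown for these 7 members. Each is the 160 bases before the RefSeq start of the gene, 5′ to 3′ on the gene's strand (build GRCm38.p6, which has the coordinates of mm10), and capitals mark matches to an ISRE-like motif, GAAA followed by any 2 bases and GAAA again, or, in Oas1a at its first capitals and in Irf1, to TTCNNNGAA, the letters of a gamma-activated site. Both motifs were searched on both strands. The stretches lie at chr12:26456453-26456612 (minus strand), chr5:120907526-120907685 (minus), chr3:142559884-142560043 (plus), chr2:122147527-122147686 (plus), chr19:34583369-34583528 (plus), chr4:156200819-156200978 (minus) and chr11:53769854-53770013 (plus).
Rsad2: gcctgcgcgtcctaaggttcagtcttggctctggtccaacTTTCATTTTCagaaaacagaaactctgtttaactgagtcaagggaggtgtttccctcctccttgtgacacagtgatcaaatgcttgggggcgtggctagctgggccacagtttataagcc
Oas1a: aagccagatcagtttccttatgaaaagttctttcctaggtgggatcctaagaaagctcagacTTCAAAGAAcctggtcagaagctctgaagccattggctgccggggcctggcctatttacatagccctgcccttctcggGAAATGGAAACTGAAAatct
Gbp3: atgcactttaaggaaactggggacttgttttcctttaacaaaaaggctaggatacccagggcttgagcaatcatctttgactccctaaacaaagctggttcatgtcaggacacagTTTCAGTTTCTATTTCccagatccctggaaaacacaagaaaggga
B2m: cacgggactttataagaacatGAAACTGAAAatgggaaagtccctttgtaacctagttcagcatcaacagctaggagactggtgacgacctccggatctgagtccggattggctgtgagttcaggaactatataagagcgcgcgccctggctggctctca
Ifit3: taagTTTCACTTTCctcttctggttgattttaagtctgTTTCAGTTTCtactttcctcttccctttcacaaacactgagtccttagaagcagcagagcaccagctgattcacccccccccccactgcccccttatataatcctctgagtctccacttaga
Isg15: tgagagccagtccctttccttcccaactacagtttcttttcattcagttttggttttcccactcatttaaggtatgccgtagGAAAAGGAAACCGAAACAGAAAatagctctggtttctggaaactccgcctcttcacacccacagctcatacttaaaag
Irf1: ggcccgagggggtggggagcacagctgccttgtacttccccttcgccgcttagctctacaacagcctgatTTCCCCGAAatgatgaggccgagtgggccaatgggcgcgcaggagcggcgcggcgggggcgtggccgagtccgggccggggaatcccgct

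Of the 39 members, 30 matched a promoter in the RefSeq table, which covers 300 bases from 250 before to 50 after the start. The ISRE-like motif stood in 14 of these 30 (46.7%), against 1131 of all 32851 promoters (3.44%). The gamma-activated letters stood in 6 of 30 (20%), against 2726 of 32851 promoters (8.30%). Isg15 and Oas1a carry overlapping ISRE-like matches just before the start, at -78, -72 and -66 in Isg15 and at -20 and -14 in Oas1a, counted from the start to the first base of each match. Ifit3 has separate matches at -156 and -122, Gbp3 overlapping ones at -45 and -39, and Rsad2 and B2m 1 each, at -120 and -139. Irf1 had only the gamma-activated letters, at -90. The ISRE-like motif stood in 5 of the 11 matched members past the z-test described below (45.5%) and in 9 of the other 19 (47.4%). The listed entries of Gbp3, which starts at 142496934, and B2m, which starts at 122120108, begin before the RefSeq starts used here. On the gene's strand so do those of Herc6, Ifit1 and Dtx3l, by 104295, 48001 and 44203 bases. All these entries may cover other transcripts too, and Ifit1 is among the members with the ISRE-like motif. A match describes these letters and is not a measured binding site.

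On suspension more of the interferon-induced genes fell than rose in JNK-deficient cells, while more rose than fell in control cells. In JNK-deficient cells 10 of the 39 members rose and 19 fell on suspension, against 30.6% of all 13136 tested entries that rose and 29.0% that fell. In control cells 20 rose and 8 fell, against 33.0% and 32.1% of 13386 tested entries. The median log2 change over the members was -0.73 in JNK-deficient cells, where the median of all tested entries was 0.04, and 0.27 in control cells, where it was 0.02. A fall of at least 2-fold was called for 17 members in JNK-deficient cells, with a background of 13.0%, and for 1 member, Isg15, in control cells, with a background of 12.6%.

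**Figure D1:**
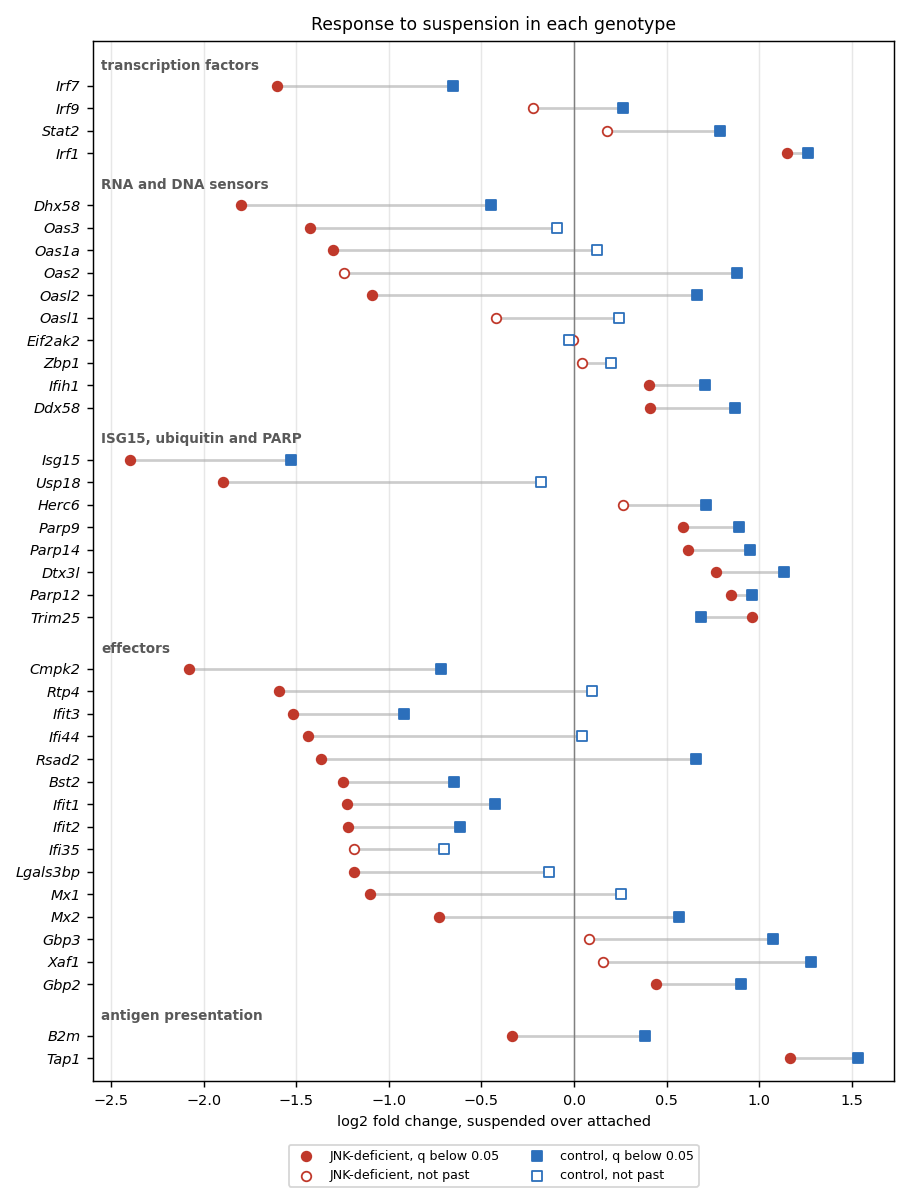
Log2 fold change on suspension (suspended over attached) of each of the 39 members in JNK-deficient and in control cells, from the authors' FPKM, grouped by role, with filled points where the authors' q-value is below 0.05. The effectors Rsad2 (-1.37 in JNK-deficient and 0.66 in control cells) and Rtp4 (-1.59 and 0.10) lie apart between the genotypes, while Parp12 (0.85 and 0.96) does not.

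Read gene by gene, 10 members rose in both genotypes (background 26.5% of 12855 entries tested in both) and 8 fell in both (26.2%). Another 7 fell in JNK-deficient cells and did not pass the test in control cells, namely Oas1a, Oas3, Usp18, Mx1, Ifi44, Rtp4 and Lgals3bp (background 2.96%). A further 6 did not pass the test in JNK-deficient cells and rose in control cells, namely Stat2, Irf9, Oas2, Herc6, Gbp3 and Xaf1 (5.78%). Rsad2, Oasl2, Mx2 and B2m fell in JNK-deficient cells and rose in control cells, which 34 of all entries did (0.264%). Zbp1, Oasl1, Eif2ak2 and Ifi35 passed the test in neither genotype (27.1%).

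The log2 change on suspension was lower in JNK-deficient than in control cells for 37 of 39 members, Trim25 and Eif2ak2 being the exceptions, and for 44.1% of all entries. The z-test of this difference passed an adjusted p of 0.05 for 14 members, all with the lower change in JNK-deficient cells. Over all 12765 entries tested, 1.8% passed, 70 with the higher (0.548%) and 160 with the lower change (1.25%) in JNK-deficient cells. With the differences centred on their median over all tested entries, these counts were 44 and 188. The 14 were Irf7, Oas1a, Oasl2, Usp18, Ifit2, Ifit3, Rsad2, Cmpk2, Mx2, Gbp3, Ifi44, Rtp4, Lgals3bp and B2m, with adjusted p between 5.35e-05 for Oasl2 and 0.0378 for Mx2, as derived from the p-values of the authors' deposited tables. For 9 of them the changes differed by at least 2-fold, with a background of 0.815% of entries with the lower change. With standard errors from the suspension tables alone, 8 members passed, and Irf7, Ifit2, Ifit3, Cmpk2, Gbp3 and Lgals3bp did not.

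**Figure D2:**
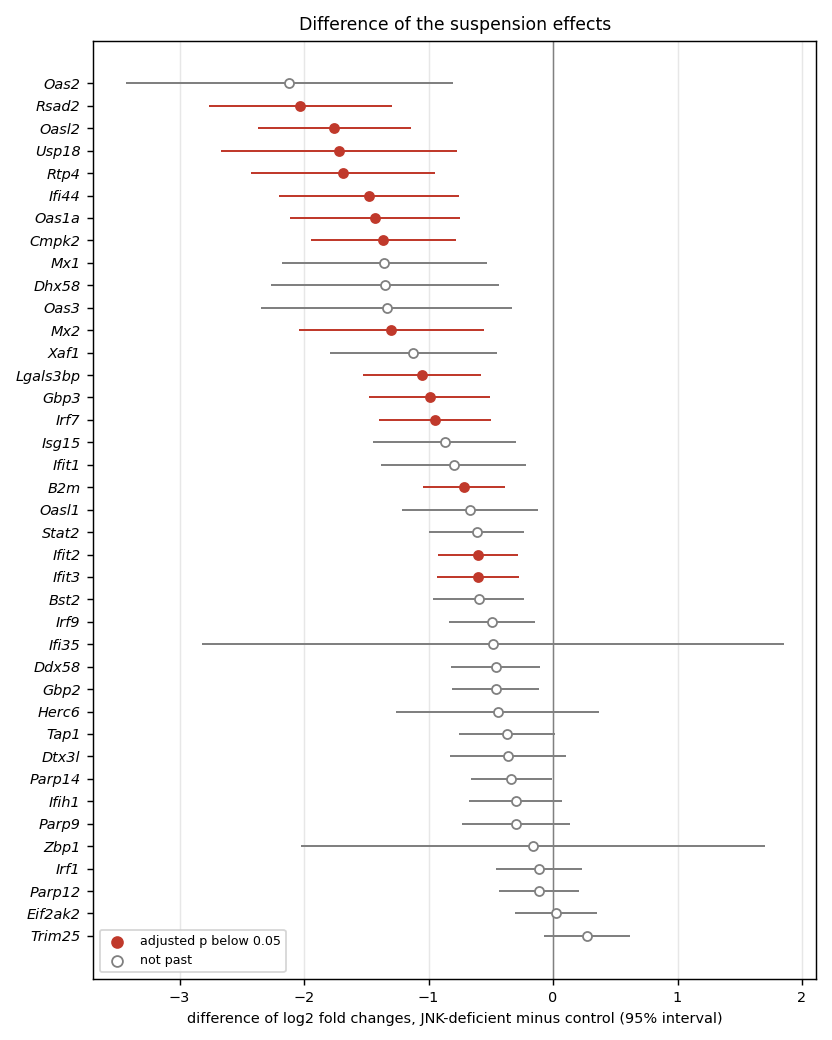
Difference of the log2 change on suspension, JNK-deficient minus control cells, for each member with its 95% interval from the derived standard error (in 12 members an upper bound). Of the 39 points, 37 lie below 0, and the 14 filled points, among them Oasl2 at -1.76 and Rsad2 at -2.03, pass the adjusted p of 0.05.

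The 4 transcription factors moved in different directions. Irf1, which activates interferon genes and antigen presentation, had 28.4 FPKM in suspended and 12.8 FPKM in attached JNK-deficient cells, and 30.8 FPKM in suspended and 12.8 FPKM in attached control cells. It rose in both genotypes, by 1.15 and 1.27 on the log2 scale (q = 0.000144 and 0.000123 in the authors' deposited tables), with a difference of -0.12 (SE 0.176, 95% interval -0.46 to 0.23). Irf7, the factor that amplifies interferon production, had 9.37 FPKM in suspended and 28.5 FPKM in attached JNK-deficient cells, and 16.9 FPKM in suspended and 26.5 FPKM in attached control cells. Its level thus dropped in both genotypes and more so in JNK-deficient cells, with log2 changes of -1.60 and -0.65, a difference of -0.95 (SE 0.229). The control change lost its call after correction for GC content and length.

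Stat2 and Irf9, whose products are part of the complex that binds the ISRE, rose in control cells by the authors' test and did not pass it in JNK-deficient cells. Stat2 had 11.0 FPKM in suspended and 9.74 FPKM in attached JNK-deficient cells, and 16.5 FPKM in suspended and 9.56 FPKM in attached control cells. Irf9 had 18.8 FPKM in suspended and 21.9 FPKM in attached JNK-deficient cells, and 28.4 FPKM in suspended and 23.6 FPKM in attached control cells. The difference between the genotypes did not pass the z-test for either gene, at -0.61 for Stat2 (SE 0.195) and -0.49 for Irf9 (SE 0.177), and after correction for GC content and length Irf9 was not called in control cells (0.14) and was called lower in JNK-deficient cells (-0.34). In suspended cells Stat2 fell by 0.54, Irf9 by 0.55 and Irf7 by 0.80 on the log2 scale in JNK-deficient relative to control cells (q = 0.0189, 0.00331 and 0.00257 in the authors' deposited table). In attached cells none of the 4 factors passed the test between genotypes.

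Among the 10 sensors and linked enzymes, the RNA sensors that signal onward rose in both genotypes, while Oas1a and Oasl2, an oligoadenylate synthetase and a relative, passed the z-test of the difference. Ifih1, which encodes the RNA sensor MDA5, had 8.18 FPKM in suspended and 6.19 FPKM in attached JNK-deficient cells, and 10.7 FPKM in suspended and 6.58 FPKM in attached control cells. Ddx58, which encodes RIG-I, had 19.8 FPKM in suspended and 14.9 FPKM in attached JNK-deficient cells, and 22.7 FPKM in suspended and 12.4 FPKM in attached control cells. Both rose in both genotypes, with the lower change in JNK-deficient cells, by differences of -0.30 and -0.46 that did not pass the z-test. After correction for GC content and length neither passed in JNK-deficient cells. Dhx58, which encodes the regulatory relative LGP2, went the other way, with 1.01 FPKM in suspended and 3.53 FPKM in attached JNK-deficient cells, and 3.76 FPKM in suspended and 5.13 FPKM in attached control cells. It fell by 1.80 and 0.45 on the log2 scale, the control call was lost after that correction, and the difference of -1.35 (SE 0.468) did not pass.

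The oligoadenylate synthetases make the messenger that switches on RNase L, which degrades viral and cellular RNA. Oas1a, Oas2 and Oas3 lie together on chromosome 5, and the relatives Oasl1 and Oasl2 lie together at another place on it. Close copies of these genes may share reads. Oas1a (chr5:120896257-120907525) had 3.16 FPKM in suspended and 7.80 FPKM in attached JNK-deficient cells, and 9.96 FPKM in suspended and 9.13 FPKM in attached control cells. The suspended JNK-deficient cells alone stood low. The log2 changes were -1.30 (q = 0.000144) and 0.12 (q = 0.42 in the authors' deposited tables), a difference of -1.43 (SE 0.349). Oasl2 (chr5:114896934-114912245), an antiviral relative with ubiquitin-like domains, had 2.90 FPKM in suspended and 6.18 FPKM in attached JNK-deficient cells, and 10.3 FPKM in suspended and 6.48 FPKM in attached control cells. Its attached levels lay close together and its suspended levels on either side of them, with log2 changes of -1.09 and 0.67 and a difference of -1.76 (SE 0.315).

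Oas2 and Oas3 were at most 1.15 FPKM in every group, and with a pseudocount of 1 FPKM their log2 changes shrank. Oas3 fell in JNK-deficient cells by 1.43 on the log2 scale (q = 0.00514 in the authors' deposited table), while Oas2 rose in control cells by 0.88 (q = 0.0163). Oas2 did not pass in JNK-deficient cells (-1.24, where the authors' deposited table has q = 0.0524) and did so after correction for GC content and length or centring. The difference did not pass for Oas2 (-2.12, SE 0.669) or Oas3 (-1.34, SE 0.514). Oasl1 passed the test on suspension in neither genotype, at 3.33 FPKM in suspended and 4.46 FPKM in attached JNK-deficient cells, and 6.12 FPKM in suspended and 5.17 FPKM in attached control cells. After correction for GC content and length it passed in control cells, with a log2 change of 0.77.

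Eif2ak2, the gene of the RNA-dependent kinase PKR, which halts translation, passed no test by the authors, at 16.9 FPKM in suspended and 17.0 FPKM in attached JNK-deficient cells, and 18.9 FPKM in suspended and 19.2 FPKM in attached control cells. The difference of its changes was 0.02 (SE 0.169, 95% interval -0.31 to 0.36). Corrected for GC content and length, its log2 change was -0.31 in JNK-deficient cells, with no test, and -0.28 in control cells, where it was called. Zbp1, a sensor of left-handed nucleic acid that can start necroptosis, had 1.53 FPKM in suspended and 1.48 FPKM in attached JNK-deficient cells, and 1.41 FPKM in suspended and 1.23 FPKM in attached control cells, and passed no test.

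The 8 genes of ISG15 conjugation, ubiquitin ligation and ADP-ribosylation divided into 5 that rose in both genotypes (Trim25, Dtx3l, Parp9, Parp12 and Parp14) and 3 that did not (Isg15, Usp18 and Herc6). On suspension 5 rose and 2 fell in JNK-deficient cells, against 30.6% and 29.0% of all tested entries. In control cells 6 rose and 1 fell, against 33.0% and 32.1%. Isg15, the ubiquitin-like protein that is attached to other proteins during the interferon response, had 10.6 FPKM in suspended and 55.7 FPKM in attached JNK-deficient cells, and 17.1 FPKM in suspended and 49.3 FPKM in attached control cells. This was the steepest fall of any member in either genotype, by 2.40 and 1.53 on the log2 scale, and the difference of -0.87 did not pass the z-test (SE 0.293). Usp18, the protease that removes ISG15 and blocks the interferon receptor, had 4.55 FPKM in suspended and 16.9 FPKM in attached JNK-deficient cells, and 18.6 FPKM in suspended and 21.0 FPKM in attached control cells. It fell in JNK-deficient cells, by 1.89 on the log2 scale, and did not pass in control cells (-0.18, q = 0.199 in the authors' deposited table), with a difference of -1.72 (SE 0.483).

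Herc6, the main ligase that attaches ISG15 in mice, was low in JNK-deficient cells in either culture, at 3.54 FPKM in suspended and 2.94 FPKM in attached JNK-deficient cells, and 12.2 FPKM in suspended and 7.46 FPKM in attached control cells. Between genotypes its log2 fold change was -1.73 in suspended cells (the authors' deposited table has q = 0.00099) and -1.26 in attached cells (q = 0.000347), the only member lower by at least 2-fold in attached cells (background 2.21%). On suspension Herc6 rose in control cells (0.71), a call lost after correction for GC content and length, and did not pass in JNK-deficient cells (0.27), and the difference of -0.44 did not pass. Trim25, a ubiquitin ligase that activates RIG-I, went the other way between genotypes. It had 35.4 FPKM in suspended and 18.2 FPKM in attached JNK-deficient cells, and 24.1 FPKM in suspended and 15.0 FPKM in attached control cells. Trim25 was the only member higher in JNK-deficient than in control suspended cells by the authors' test, by 0.61 on the log2 scale (the authors' deposited table has q = 0.00099).

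The ADP-ribosyltransferases Parp9, Parp12 and Parp14 and the ubiquitin ligase Dtx3l, which works with PARP9, rose in both genotypes. Parp12 had 27.0 FPKM in suspended and 15.0 FPKM in attached JNK-deficient cells, and 32.6 FPKM in suspended and 16.7 FPKM in attached control cells. Parp14 had 11.0 FPKM in suspended and 7.17 FPKM in attached JNK-deficient cells, and 16.3 FPKM in suspended and 8.40 FPKM in attached control cells. Dtx3l rose by 0.77 and Parp9 by 0.59 on the log2 scale in JNK-deficient cells, and by 1.13 and 0.89 in control cells. These genes share 1 listed locus on chromosome 16, so reads where they overlap could not be told apart. After correction for GC content and length Parp9 and Parp14 did not pass in JNK-deficient cells. Differences of -0.11 for Parp12 to -0.36 for Dtx3l did not pass the z-test.

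The 15 genes listed as effectors, some of which act on viral entry, replication or release, moved apart most often by the z-test. In JNK-deficient cells 11 fell on suspension and 1, Gbp2, rose, against 29.0% and 30.6% of all tested entries. In control cells 5 fell and 5 rose, near the background of 32.1% and 33.0%. The z-test passed for 9 of the 15 effectors and for 2 of the 10 sensors and linked enzymes. It passed for 1 of 8 genes of the ISG15, ubiquitin and ADP-ribose group, 1 of 4 transcription factors and 1 of 2 antigen presentation genes. All had the lower change in JNK-deficient cells, as did 1.25% of all entries. With standard errors from the suspension tables alone, the effectors Ifit2, Ifit3, Cmpk2, Gbp3 and Lgals3bp did not pass.

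Rsad2 (chr12:26442743-26456452) encodes viperin, a radical SAM enzyme that makes a chain-terminating nucleotide out of CTP, and its neighbour Cmpk2 (chr12:26469215-26479837) encodes a nucleotide kinase that supplies the CTP. Rsad2 had 5.46 FPKM in suspended and 14.1 FPKM in attached JNK-deficient cells, and 25.5 FPKM in suspended and 16.1 FPKM in attached control cells. The attached groups lay side by side, while suspended JNK-deficient cells stood lowest and suspended control cells highest. The log2 changes of -1.37 (q = 0.000144) and 0.66 (q = 0.000123 in the authors' deposited tables) differed by -2.03 (SE 0.374). Cmpk2 had 3.11 FPKM in suspended and 13.1 FPKM in attached JNK-deficient cells, and 7.14 FPKM in suspended and 11.7 FPKM in attached control cells. It fell in both genotypes, with log2 changes of -2.08 and -0.72 and a difference of -1.36 (SE 0.298), so these neighbouring genes moved in opposite directions in control cells and together in JNK-deficient cells.

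Ifi44, Rtp4 and Lgals3bp fell in JNK-deficient cells and did not pass the test in control cells. Ifi44, an interferon-induced protein with antiviral activity, had 4.42 FPKM in suspended and 12.0 FPKM in attached JNK-deficient cells, and 12.5 FPKM in suspended and 12.1 FPKM in attached control cells. Rtp4, a chaperone-like protein induced by interferon, had 4.12 FPKM in suspended and 12.4 FPKM in attached JNK-deficient cells, and 11.9 FPKM in suspended and 11.1 FPKM in attached control cells. For both genes 3 groups lay close together and the suspended JNK-deficient cells stood below them, with differences of -1.48 for Ifi44 (SE 0.37) and -1.69 for Rtp4 (SE 0.378). Lgals3bp, a secreted galectin-binding glycoprotein, instead stood out in attached JNK-deficient cells, with 62.4 FPKM in suspended and 142 FPKM in attached JNK-deficient cells, and 77.2 FPKM in suspended and 84.8 FPKM in attached control cells. Its difference was -1.05 (SE 0.241). Its control change of -0.14 (the authors' deposited table has q = 0.242) turned to 0.33 and was called after correction for GC content and length, where its fall in JNK-deficient cells no longer passed.

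Mx1 and Mx2 are dynamin-like GTPases that trap viral ribonucleoproteins, and C57BL/6 mice are known to carry a defective Mx1. Mx2 had 1.14 FPKM in suspended and 1.89 FPKM in attached JNK-deficient cells, and 2.85 FPKM in suspended and 1.92 FPKM in attached control cells, a difference of the log2 changes of -1.30 (SE 0.378). With standard errors from the genotype tables alone it missed the threshold. Mx1 had 0.683 FPKM in suspended and 1.47 FPKM in attached JNK-deficient cells, and 2.13 FPKM in suspended and 1.79 FPKM in attached control cells, with a difference of -1.36 that did not pass (SE 0.42). Both genes were thus low in level, lowest in suspended JNK-deficient cells and highest in suspended control cells.

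The guanylate-binding proteins are GTPases that coat intracellular pathogens. Gbp3 had 9.46 FPKM in suspended and 8.93 FPKM in attached JNK-deficient cells, and 17.1 FPKM in suspended and 8.14 FPKM in attached control cells. Here the suspended control cells stood alone above the other groups, with a difference of -0.99 (SE 0.249). Its neighbour Gbp2 rose in both genotypes, with 42.9 FPKM in suspended and 31.5 FPKM in attached JNK-deficient cells, and 45.7 FPKM in suspended and 24.4 FPKM in attached control cells. The difference of -0.46 did not pass for Gbp2, and its rise in JNK-deficient cells was not called after correction for GC content and length. Xaf1, a pro-apoptotic interferon-induced gene, resembled Gbp3, with 13.5 FPKM in suspended and 12.1 FPKM in attached JNK-deficient cells, and 29.7 FPKM in suspended and 12.3 FPKM in attached control cells. Its difference of -1.12 (SE 0.341) lay just outside the threshold and passed after that correction.

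Ifit1, Ifit2, Ifit3 and Bst2 fell in both genotypes. The IFIT proteins bind viral RNA that lacks the host's cap methylation, and their genes lie together on chromosome 19, where near-identical copies may share reads. Ifit3 (chr19:34583529-34588982) had 102 FPKM in suspended and 293 FPKM in attached JNK-deficient cells, and 119.8 FPKM in suspended and 227 FPKM in attached control cells. Ifit2 had 18.8 FPKM in suspended and 43.9 FPKM in attached JNK-deficient cells, and 25.8 FPKM in suspended and 39.6 FPKM in attached control cells. Ifit3 fell by 1.52 and 0.92 on the log2 scale and Ifit2 by 1.22 and 0.62, and each had a difference of -0.60 that passed the z-test (SE 0.168 for Ifit3 and 0.165 for Ifit2). Ifit1 fell by 1.22 in JNK-deficient and 0.42 in control cells, and its difference of -0.80 did not pass. Bst2, which encodes tetherin, the protein that holds budding virions at the cell surface, had 60.3 FPKM in suspended and 143 FPKM in attached JNK-deficient cells, and 87.7 FPKM in suspended and 138 FPKM in attached control cells, with a difference of -0.60 that did not pass (SE 0.186). The fall of Bst2 in control cells was not called after correction for GC content and length. Ifi35 passed no test, with log2 changes of -1.19 and -0.70 and a wide error on their difference (-0.49, SE 1.19).

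**Figure D3:**
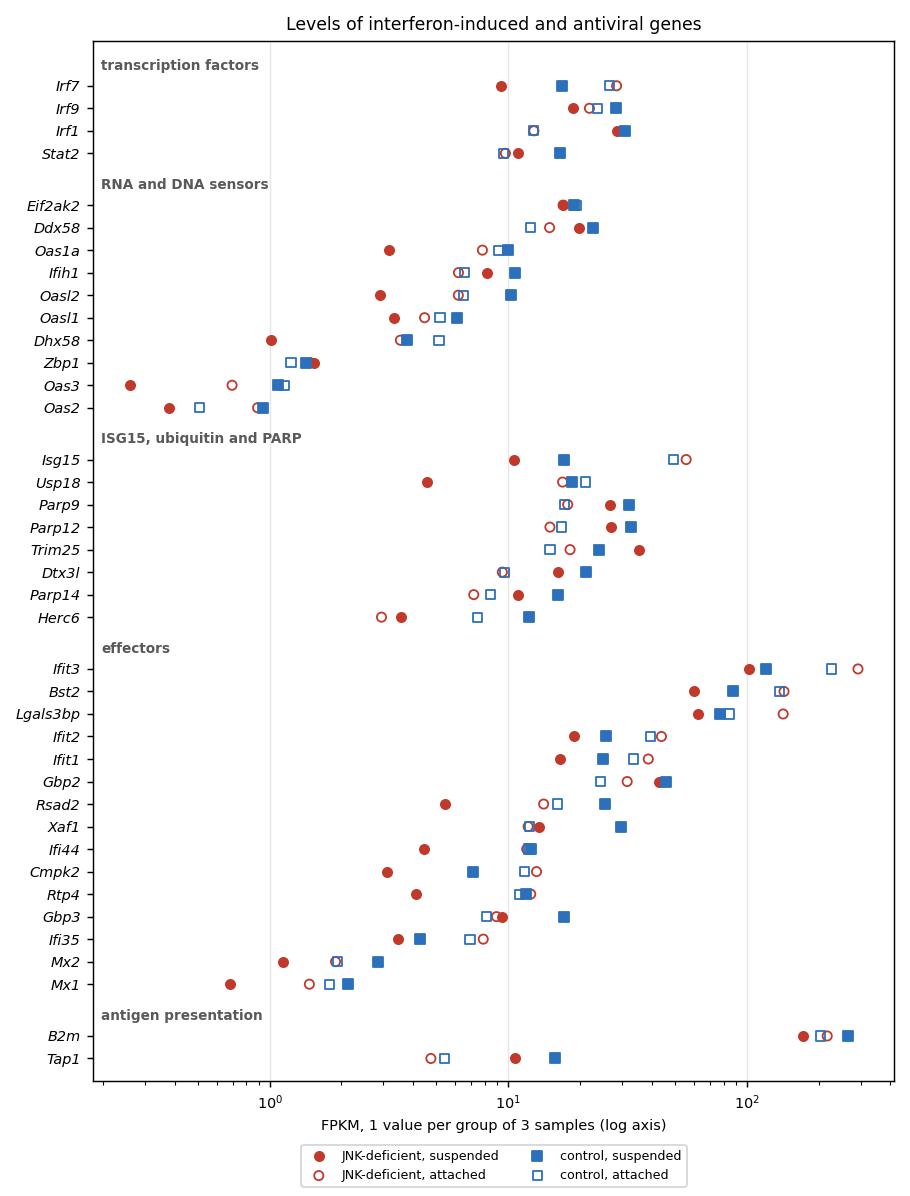
FPKM of the 39 members in the 4 groups on a log axis, 1 authors' value per group without error, from the suspension table of each genotype. For Rsad2 the suspended JNK-deficient cells (5.46 FPKM) stand lowest and the suspended control cells (25.5 FPKM) highest, while for Isg15 both suspended groups (10.6 and 17.1 FPKM) lie below both attached groups.

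Antigen presentation was represented by Tap1, which encodes a subunit of the peptide transporter, and B2m, the invariant chain of class I molecules. Tap1 rose in both genotypes, with 10.6 FPKM in suspended and 4.74 FPKM in attached JNK-deficient cells, and 15.6 FPKM in suspended and 5.40 FPKM in attached control cells. The difference of -0.37 did not pass for Tap1. B2m (chr2:122120108-122186189) was abundant, with 173 FPKM in suspended and 217 FPKM in attached JNK-deficient cells, and 266 FPKM in suspended and 204 FPKM in attached control cells. It fell in JNK-deficient cells, by 0.33 on the log2 scale (q = 0.0105 in the authors' deposited table), and rose in control cells, by 0.38 (q = 0.000772), a difference of -0.72 (SE 0.168). This held with standard errors from either pair of tables.

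Set side by side in suspension, JNK-deficient cells had lower levels of most members than control cells. By the authors' test 23 of 39 members were lower and 1, Trim25, was higher, against 6.93% and 5.57% of 12795 tested entries. The log2 fold change was below 0 for 37 of 39 members, the exceptions being Trim25 and Zbp1, and for 49.0% of all entries. The median was -0.55 over the members and 0.01 over all tested entries, and 13 members were lower by at least 2-fold, with a background of 3.18%. This comparison shares its samples with the changes on suspension, so it is another reading of the same suspended cells and not separate evidence.

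By role, the lower members were 3 of 4 transcription factors, 5 of 10 sensors, 3 of 8 genes of the ISG15, ubiquitin and ADP-ribose group, 10 of 15 effectors and both genes of antigen presentation. Of members above 5 FPKM, Rsad2 stood furthest apart, with 5.74 FPKM in JNK-deficient cells, against 25.9 FPKM in control cells, -2.17 on the log2 scale (the authors' deposited table has q = 0.00099). Usp18 followed with 4.79 FPKM in JNK-deficient cells, against 18.9 FPKM in control cells (-1.98), and Oasl2 with 3.05 FPKM, against 10.4 FPKM (-1.78), both at the same q-value in the authors' deposited table. These values come from the genotype tables, in which each group is scaled slightly differently than in the suspension tables.

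Oas1a, Ifi44, Rtp4, Cmpk2 and Xaf1 were lower by 1.08 to 1.61 on the log2 scale in suspended JNK-deficient relative to control cells, and Irf7, Oasl1, Gbp3, Bst2 and Ifit2 by 0.40 to 0.83. Below 5 FPKM in both groups, Dhx58, Oas3, Mx1 and Mx2 were lower too, by 1.27 to 2.01. B2m was lower by 0.57. Among genes that rose on suspension in both genotypes, Parp14 (-0.51) and Tap1 (-0.50) were lower, and Irf1 (-0.06, q = 0.875 in the authors' deposited table), Gbp2 (-0.04) and Ddx58 (-0.15) did not pass. The call of Tap1 was lost after correction for GC content and length. Ifit3, the most abundant effector, did not pass either, at 107 FPKM in JNK-deficient cells, against 122 FPKM in control cells.

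**Figure D4:**
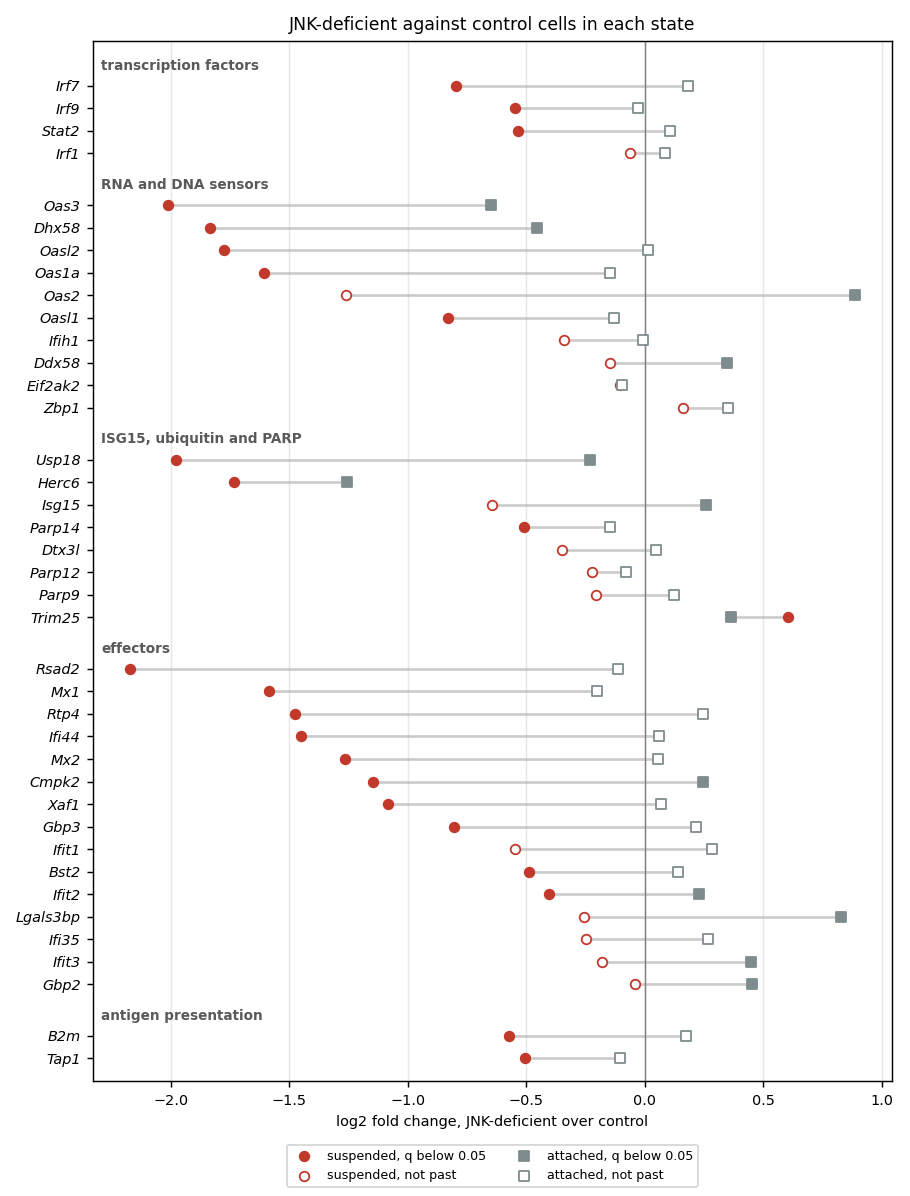
Log2 fold change between genotypes (JNK-deficient over control) of each member in suspended and in attached cells, with filled points where the authors' q-value is below 0.05. In suspended cells 37 of 39 members lie below 0, with Rsad2 at -2.17, and in attached cells 14 of 39 do, against 50.2% of all entries.

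In attached monolayers the genotypes lay closer. By the authors' test 9 members were higher and 4 lower in JNK-deficient cells, against 14.7% and 14.1% of 12960 tested entries, and the median was 0.09 over the members and -0.00 over all entries. Lgals3bp was higher, with 141 FPKM in attached JNK-deficient cells, against 79.7 FPKM in attached control cells (0.83, q = 0.000347 in the authors' deposited table). Oas2 was higher as well, at under 1 FPKM in both groups, and Ifit3 (0.45), Gbp2 (0.45), Trim25 (0.36), Ddx58 (0.35), Isg15 (0.26), Cmpk2 (0.24) and Ifit2 (0.23) by less than 1.5-fold. The call of Isg15 was lost after correction for GC content and length. The 4 lower members were Herc6 (-1.26), Oas3 (-0.65), Dhx58 (-0.46) and Usp18 (-0.23). Rsad2, Oasl2, Oas1a, Ifi44 and Gbp3, which differed in suspended cells, did not pass in attached cells, with log2 fold changes between -0.15 and 0.22.

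Other genes of the pathway were taken from lists compiled by role. Of the interferon ligands, 9 entries were found and 1 could be tested. Ifnb1, the gene of interferon beta, had 0.207 FPKM in suspended and 0.189 FPKM in attached JNK-deficient cells, which the authors did not test, and 0.719 FPKM in suspended and 0.230 FPKM in attached control cells, a log2 change of 1.64 that did not pass (q = 0.114 in the authors' deposited table). Of the ligand entries 5 were listed at 0 in every group.

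The 9 tested genes of receptors and JAK kinases had 4 that rose and 1 that fell in JNK-deficient cells, where 30.6% of all tested entries rose and 29.0% fell. In control cells 7 rose and 1 fell, against 33.0% and 32.1% of all entries. Ifnar1, a chain of the type I receptor, had 27.2 FPKM in suspended and 19.5 FPKM in attached JNK-deficient cells, and 31.4 FPKM in suspended and 22.4 FPKM in attached control cells. Ifngr2, a chain of the receptor for interferon gamma, had 89.2 FPKM in suspended and 44.5 FPKM in attached JNK-deficient cells, and 129.6 FPKM in suspended and 54.1 FPKM in attached control cells. None of this list passed the z-test of the difference, which 1.8% of all tested entries passed.

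Of 15 tested genes of sensing adaptors and their kinases, 3 rose and 4 fell in JNK-deficient cells and 5 rose and 5 fell in control cells. None passed the z-test. For this list and the next ones, the background is 30.6% that rose and 29.0% that fell in JNK-deficient cells. In control cells it is 33.0% and 32.1%. The z-test passed for 1.8% of all tested entries, a share at which lists this short would hold few or none. Irf3, the factor that first switches on interferon genes, fell in both genotypes, with 18.1 FPKM in suspended and 44.9 FPKM in attached JNK-deficient cells, and 18.7 FPKM in suspended and 47.3 FPKM in attached control cells. Corrected for GC content and length, its log2 change in JNK-deficient cells was -0.62, in place of -1.31, and was not called. Ikbke, the gene of a kinase that phosphorylates IRF3 and IRF7, was the 1 gene of this list that differed between genotypes in suspended cells, at 8.80 FPKM in JNK-deficient cells, against 14.4 FPKM in control cells (-0.71, q = 0.00182 in the authors' deposited table). In that comparison 6.93% of all tested entries were lower and 5.57% higher, so 1 lower gene of 15 is near the background. Of 12 genes listed as feedback inhibitors, 4 rose and 5 fell in JNK-deficient cells and 5 rose and 3 fell in control cells, and none of the 11 tested was called between genotypes in suspended cells. Usp18, which also blocks the receptor, is counted among the members and not in this list, and was lower in suspended JNK-deficient cells (-1.98). Of 13 further genes of antigen presentation 4 rose and 4 fell in JNK-deficient cells, 5 rose and 2 fell in control cells, and none passed the z-test. Psmb10, a subunit of the immunoproteasome, fell steeply in both, with log2 changes of -1.99 and -2.22.

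A longer list held 54 other interferon-induced entries, of which 46 could be tested in JNK-deficient and 47 in control cells. On suspension 5 rose and 25 fell in JNK-deficient cells, and 19 rose and 16 fell in control cells, with median log2 changes of -0.63 and 0.19. Of all tested entries 30.6% rose and 29.0% fell in JNK-deficient cells, and 33.0% rose and 32.1% fell in control cells. The z-test passed for 8, all with the lower change in JNK-deficient cells, against 1.25% of all entries. Iigp1, an immunity-related GTPase that attacks the vacuoles of intracellular parasites, had 1.08 FPKM in suspended and 8.66 FPKM in attached JNK-deficient cells, and 2.04 FPKM in suspended and 6.97 FPKM in attached control cells, a difference of -1.23 (SE 0.344). In suspended cells Ccl5, a chemokine gene, was lower in JNK-deficient cells, at 14.4 FPKM, against 43.2 FPKM in control cells (-1.58, q = 0.00099 in the authors' deposited table). Attached JNK-deficient cells had less Ccl5 too, at 14.4 FPKM, against 21.7 FPKM in control cells (-0.59, q = 0.000347 in the authors' deposited table). Ccl5 was not among the 8 past the z-test. Cxcl10, the gene of an interferon-induced chemokine, fell in both genotypes, with 27.6 FPKM in suspended and 95.3 FPKM in attached JNK-deficient cells, and 37.9 FPKM in suspended and 92.6 FPKM in attached control cells. Ifi30, an enzyme of antigen processing, rose in both, with 120.9 FPKM in suspended and 56.4 FPKM in attached JNK-deficient cells, and 84.3 FPKM in suspended and 39.4 FPKM in attached control cells. By the authors' test it was also higher in suspended JNK-deficient cells (127 FPKM) than in suspended control cells (85.6 FPKM).

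**Figure D5:**
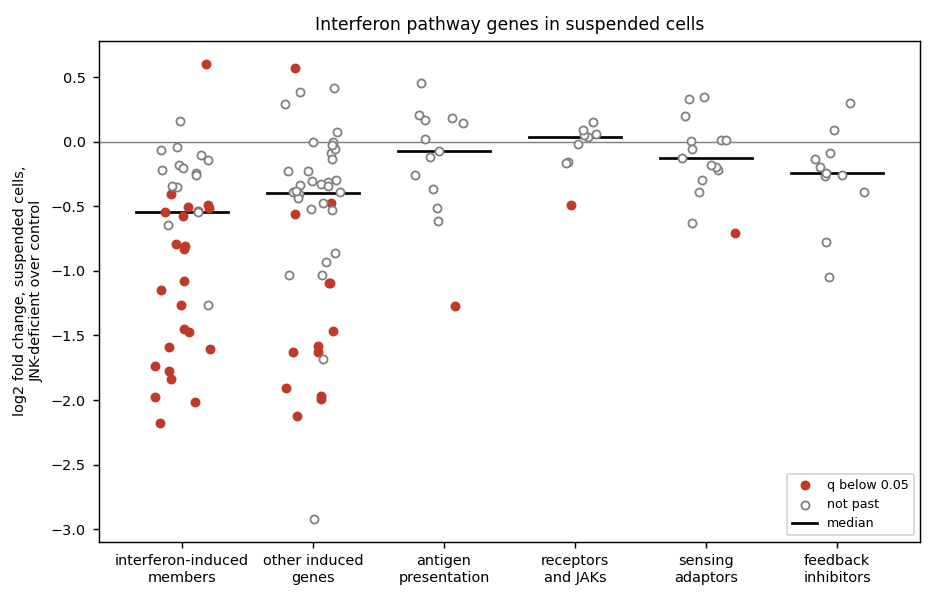
Log2 fold change in suspended cells (JNK-deficient over control) of the members and of each other list of pathway genes, 1 point per tested entry, filled where the authors' q-value is below 0.05, with a line at each list's median. The members lie at a median of -0.55 and the other induced genes at -0.40, and both the lowest points and most of the filled ones belong to these lists.

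Properties that moved with these changes are given as values. Of the 7 leukocyte markers, 4 rose on suspension in each genotype (Ptprc, Csf1r, Cd68 and Cd74) and 1 fell (Cd14), while Itgam was at most 0.05 FPKM and Lyz2 at most 0.897 FPKM. Ptprc had 10.7 FPKM in suspended and 1.05 FPKM in attached JNK-deficient cells, and 8.92 FPKM in suspended and 1.14 FPKM in attached control cells. Csf1r, the receptor gene of macrophages, had 7.97 FPKM in suspended and 1.47 FPKM in attached JNK-deficient cells, and 3.87 FPKM in suspended and 0.572 FPKM in attached control cells. It was higher in JNK-deficient cells in suspension, by 1.09 on the log2 scale (the authors' deposited table has q = 0.00099), and in attached cells, by 1.44 (q = 0.000347). Cd14 had 28.4 FPKM in suspended and 61.3 FPKM in attached JNK-deficient cells, and 22.5 FPKM in suspended and 38.9 FPKM in attached control cells. Cd14 was also higher in attached JNK-deficient than in attached control cells, by 0.74. Cd68 rose by 1.14 and 1.19 and Cd74 by 1.80 and 3.15 on the log2 scale in JNK-deficient and control cells. None of the 5 that could be tested passed the z-test of the difference, and the part of these markers in the results was not tested. The GC content of transcripts had a Spearman correlation with the log2 change of -0.38 on suspension in JNK-deficient cells over 12511 entries and -0.32 in control cells over 12769 entries, values from the same libraries. The members' median GC content was 49.4%, against 49.6% over the tested entries. After correction for GC content and length the z-test of the difference passed for 15 members, and 22 members were lower in suspended JNK-deficient cells. In bulk RNA fewer cells of a type and less RNA per cell cannot be told apart.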

How the data were processed

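RNA from 12 samples in 4 groups was purified on columns with DNase and sequenced as mRNA libraries on an Illumina HiSeq, per the labels' protocols. Cuffdiff, Cufflinks 1.0.3, Bowtie, TopHat and mouse build mm10 stand in the submitters' processing notes. The annotation, and whether counting used strand, is not given in the sources used. The authors deposited 4 pairwise tables of 31026 entries with 1 FPKM per group and a p-value and q-value for each entry, with p in steps of 5e-05. These tables hold no values per sample, so depth is unknown and no SD, counting interval or floor is given. FPKM of a group differed between tables by a shift of up to 0.0895 on the log2 scale, so each fold change is taken within 1 table.

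Log2 fold changes were computed from the deposited FPKM without a pseudocount, because the deposited log2 ratio column holds entries that are not numbers. Calls are the authors' q-values below 0.05. The difference of the suspension effects was tested by a z-test, with each SE the log2 change divided by the normal score of the deposited p-value, taken from the suspension and the genotype tables (their mean, or that of the pair not at the lowest p), and Benjamini-Hochberg adjustment over 12765 entries. Where p was at its lowest step the SE is an upper bound (12 members). The z-test is an approximation: without values per sample no exact or permutation test could be run. It was tried on simulated data with normal errors, equal in the 4 groups, from which the simulated p-values were made. That trial cannot show how the z-test does with the authors' p-values. Python 3.11.15, pandas 2.3.3, scipy 1.17.1 and statsmodels 0.14.6 were used. Members with at least 5 FPKM in the higher group and past the threshold get FPKM values, up to 24 a comparison by size of change, as does each member past the z-test and, beyond that rule, further members that complete a family. Of other pathway lists up to 4 genes are named, with Ifnar1, Ifnb1, Cxcl10 and Ptprc added after their values were seen. The members and lists were chosen with earlier results of these data known. Promoters are RefSeq's.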

Additional observations from a re-analysis of the deposited data

Results flagged for a closer look

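For 14 members the change on suspension differed between JNK-deficient and control cells by the z-test of the difference itself, adjusted over all tested entries. The difference of the log2 changes, JNK-deficient minus control, was -2.03 for Rsad2, -1.76 for Oasl2, -1.72 for Usp18, -1.69 for Rtp4, -1.48 for Ifi44, -1.43 for Oas1a, -1.36 for Cmpk2 and -1.30 for Mx2. It was -1.05 for Lgals3bp, -0.99 for Gbp3, -0.95 for Irf7, -0.72 for B2m, -0.60 for Ifit2 and -0.60 for Ifit3. The difference was negative in all 14, against 160 of the 230 entries past the threshold over the whole tables. Samples that stand apart within a group could not be looked for, because the tables hold 1 value per group.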

How the results depend on the processing

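No paired analysis was possible because the tables hold 1 value per group and none per replicate, and for the same reason leaving out replicates was not run. The count of members with the lower change on suspension in JNK-deficient cells was 14 by the z-test, 8 with standard errors from the suspension tables alone and 13 with those of the genotype tables. It was 10 at an adjusted p below 0.01, 15 after correction for GC content and length and 18 with the differences centred on their median. Over all entries the z-test gave 70 with the higher and 160 with the lower change, 23 and 80 with standard errors from the suspension tables alone, 43 and 119 with those of the genotype tables, and 18 and 82 at an adjusted p below 0.01. After correction for GC content and length 5 members, in place of 10, rose in JNK-deficient cells, and the control change of Lgals3bp turned to 0.33 from -0.14. With a minimum of 1.5-fold, 2 members in place of 9 were higher and 2 in place of 4 lower in attached JNK-deficient cells. The 23 members lower in suspended JNK-deficient cells numbered between 16 and 23 under all settings tried. The cause of these shifts was not tested, except that a minimum fold or a stricter threshold removes calls by construction. Over all settings and members 1 value was reversed. Entries under about 1 FPKM, such as Oas2 and Oas3, rest on few reads of unknown number, and a pseudocount of 1 FPKM shrank their changes.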

Other observations

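Of the other interferon-induced entries, 7 beside Iigp1 passed the z-test of the difference, and they were picked out after their values were seen. They were low in level, under 5 FPKM. The difference of the log2 changes, JNK-deficient minus control, was -2.32 for Oas1b, -2.08 for Oas1g and -2.06 for Apol9a. It was -1.96 for the entry that joins Gbp6 and Gbp10, -1.83 for Slfn2, -1.72 for Apol9b and -1.32 for Lgals9. Their adjusted p lay between 0.00113 for Oas1b and 0.0363 for Lgals9. Oas1b and Oas1g are close copies of Oas1a, and Apol9a and Apol9b of each other, so reads may be shared between them. Ccl5, which had 13.7 FPKM in suspended and 14.5 FPKM in attached JNK-deficient cells, and 42.5 FPKM in suspended and 23.1 FPKM in attached control cells, rose in control cells and did not pass in JNK-deficient cells. It did not pass the z-test of the difference. By the authors' test it was lower in JNK-deficient than in control cells in both cultures.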
